A study of Mus musculus with 12 samples.

Results

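Astrocytes take up the glutamate that neurons release, convert it to glutamine and hand the glutamine back, and 8 genes of this route were followed here in sorted cells of the mouse hippocampus. They were taken as a named list and matched by symbol to Ensembl identifiers: all 8 were found in both count tables, among the 27866 identifiers of the astrocyte table and the 30359 of the microglia table. The libraries came from male C57Bl6/J mice injected on both sides in CA1 at 2 months of age with AAV2/9-GfaABC1D-Bglob-A2AR-WPRE (AAV-A2A), which carries the adenosine A2A receptor, or with AAV2/9-GfaABC1D-Bglob-GFP-WPRE (AAV-GFP), and killed 2 months later. GfaABC1D is a shortened Gfap promoter used for expression in astrocytes, and the control animals received a virus as well. Cells bound by magnetic beads against ACSA-2, an astrocyte surface antigen, and then, from the unbound cells, those bound by beads against CD11b, a surface protein of microglia, were sequenced with 3 libraries per vector and fraction, 12 in all. The libraries of the fractions carry different replicate numbers and stand in separate tables, so that fraction, animals and table cannot be told apart. Libraries are named by vector and number, such as GFP-303.

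In this route, Slc1a2 (GLT-1) and Slc1a3 (GLAST) are the main glutamate carriers of astrocytes and move glutamate inward with sodium. Glul, glutamine synthetase, joins glutamate to ammonia, and Slc38a3 (SNAT3) lets the glutamine out. Glud1, glutamate dehydrogenase, and Got1, the cytosolic aspartate aminotransferase, interconvert glutamate and 2-oxoglutarate. Slc7a11 (xCT) exports glutamate in exchange for cystine as the light chain of a pair with Slc3a2, and Slc1a4 (ASCT1) exchanges small neutral amino acids such as serine and alanine. Glutamine synthetase is a classical marker of astrocytes, while microglia and the epithelium of the choroid plexus have amino acid carriers of their own.

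RefSeq promoters (GRCm38.p6, 250 bases before to 50 after the annotated start, 300 in all) were at hand for 7 of the 8 genes, all but Slc38a3. The sequences of 4 are given, Glul because it was the one member that passed the test between the vectors, and Slc1a4, Slc7a11 and Got1 because they share a motif. Capitals mark TGATGCAA, the core of the amino acid response element, on either strand, so that TTGCATCA is the same motif read from the other strand.
Glul (chr1:153899679-153899978, plus strand): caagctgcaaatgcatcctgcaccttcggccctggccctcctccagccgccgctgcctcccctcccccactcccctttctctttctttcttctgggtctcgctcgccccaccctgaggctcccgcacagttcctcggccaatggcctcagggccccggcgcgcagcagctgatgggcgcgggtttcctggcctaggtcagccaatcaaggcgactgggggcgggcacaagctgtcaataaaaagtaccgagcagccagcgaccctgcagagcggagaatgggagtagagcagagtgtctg
Slc1a4 (chr11:20332664-20332963, minus strand): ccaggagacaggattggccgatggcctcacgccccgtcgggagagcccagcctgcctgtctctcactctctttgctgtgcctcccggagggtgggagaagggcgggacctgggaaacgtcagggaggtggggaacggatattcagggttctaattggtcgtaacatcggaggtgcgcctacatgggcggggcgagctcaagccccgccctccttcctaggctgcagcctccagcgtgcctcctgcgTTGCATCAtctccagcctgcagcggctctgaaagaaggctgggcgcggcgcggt
Slc7a11 (chr3:50443564-50443863, minus strand): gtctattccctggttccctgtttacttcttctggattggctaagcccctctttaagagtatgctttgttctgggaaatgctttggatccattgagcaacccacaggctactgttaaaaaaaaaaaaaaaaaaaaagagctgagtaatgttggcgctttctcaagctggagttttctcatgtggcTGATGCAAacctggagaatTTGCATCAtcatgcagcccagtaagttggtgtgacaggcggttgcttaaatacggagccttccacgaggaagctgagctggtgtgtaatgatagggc
Got1 (chr19:43524556-43524855, minus strand): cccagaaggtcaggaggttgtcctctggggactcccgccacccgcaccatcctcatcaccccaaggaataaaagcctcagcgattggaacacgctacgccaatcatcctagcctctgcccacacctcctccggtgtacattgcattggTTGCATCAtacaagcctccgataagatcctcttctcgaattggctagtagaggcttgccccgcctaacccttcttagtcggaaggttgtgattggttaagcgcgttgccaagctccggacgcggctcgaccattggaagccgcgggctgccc
This motif was chosen after the sequences had been read. It occurred in 3 of the 7 member promoters, on both strands in Slc7a11. Of all 32851 promoters of the same length, 294 (0.895%) held it. In a wider list of glutamate and glutamine genes, taken up below, 0 of 32 promoters (24 genes) held it. It did not overlap the other motifs searched. The Glul window held CCAAT at 2 places, a motif found in 5 of the 7 member promoters and in 37.4% of all promoters, and GGGCGG once, found in 4 of the 7 and in 35.7%. TGACGTCA, the cyclic AMP response element, was in none of the 7 windows and in 1.79% of all promoters. The window of Slc1a2 starts at an annotated start inside the gene and does not cover its first start. These matches are descriptions of the letters, and binding was not measured.

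The labelled cell types were checked against their markers. The summed level of 9 astrocyte markers was 20171 to 33489 CPM (counts per 1000000, scaled by TMM within a fraction) in the ACSA-2 libraries and 97.0 to 273 CPM in the CD11b libraries. None of the 9 markers passed the test between the vectors in ACSA-2 (median log2 FC 0.05). Of the markers of other cells, Cspg4, of oligodendrocyte precursors (log2 FC -2.17, adjusted p = 0.00226), and Flt1, of endothelial cells (-1.66, adjusted p = 0.00523), were called lower there and are named after their values were seen. The other markers of these lists were not called. The median log2 FC was -0.32 over the 4 markers of oligodendrocyte precursors and 0.009 over the 5 of endothelial cells. The summed markers of oligodendrocyte precursors did not overlap between the vectors in ACSA-2, at 159 to 331 CPM under AAV-A2A and 368 to 570 CPM under AAV-GFP, and those of endothelial cells overlapped. The part of these cells in the results below was not tested. Adora2a, the gene carried by the vector, was at 23.0 to 25.1 CPM in the AAV-GFP and 656 to 945 CPM in the AAV-A2A libraries of the ACSA-2 fraction, where reads from vector and chromosome cannot be told apart. In the CD11b fraction 3 of the 6 libraries stood apart. GFP-2328, GFP-2329 and A2A-2347 held 32282 to 77813 CPM of 6 choroid plexus markers, led by Ttr, and 9661 to 25740 CPM of 8 microglial markers, whereas GFP-2331, A2A-2343 and A2A-2344 held 11.3 to 112 and 53178 to 69401 CPM. Each of the 6 choroid plexus markers was detected in all CD11b libraries but Prlr, which was at 0 in 1, and their sum in ACSA-2 was 620 to 734 CPM under AAV-GFP and 754 to 1167 CPM under AAV-A2A. The members' log2 FC between the vectors in CD11b and between the fractions are therefore given with and without these 3 libraries. Their ratios to summed astrocyte markers are given over all CD11b libraries only. By vector, the summed markers of 4 other lists did not overlap in CD11b: in AAV-A2A against AAV-GFP libraries they were 398 to 417 against 685 to 2049 CPM for endothelial cells, 32.2 to 72.1 against 164 to 322 CPM for ependymal cells, 61.6 to 242 against 988 to 6137 CPM for erythrocytes and 6.52 to 13.9 against 26.9 to 173 CPM for neurons. The sums for astrocytes, microglia, oligodendrocytes, their precursors, border macrophages, neutrophils and the choroid plexus overlapped between the vectors in CD11b. The share of all genes lower without overlap there is not reported here. In all of these bulk samples, fewer cells of a type and less RNA per cell cannot be told apart.

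To compare the members with each other, levels were also expressed as CPM per kilobase of annotated exon (RPKM, with all 12 libraries scaled together). Glul was the highest of the 8 in the ACSA-2 libraries of AAV-GFP mice, at 4056 ± 1142 RPKM (SD, n = 3). Slc1a3 followed at 347 ± 1.86 RPKM and Slc1a2 at 138 ± 18.9 RPKM, with no overlap between the 3 genes. Slc38a3 (68.0 ± 8.83 RPKM) and Glud1 (64.2 ± 4.82 RPKM) overlapped each other. Slc1a4 was at 36.5 ± 2.46 RPKM and Got1 at 24.0 ± 6.78 RPKM, and Slc7a11 was lowest at 5.33 ± 0.63 RPKM. In the AAV-A2A libraries Glul was still the highest, at 1115 ± 215 RPKM, above Slc1a3 at 402 ± 95.1 RPKM. The exon length counts every annotated isoform, so genes with long alternative ends, such as Slc7a11 and Slc1a2, have low values on this scale.

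The first comparison asked which genes of the route changed in astrocytes when A2AR was raised in them. Glul was lower in AAV-A2A mice, and the other 7 genes did not pass the test. A gene was called when its Benjamini-Hochberg adjusted p in edgeR's quasi-likelihood test was under 0.05 and its absolute log2 FC over 0.32. By this rule 1 of the 8 members was called, against 3.36% of all 16451 tested genes. It was lower, as 3.19% of all genes were, and no member was called higher (0.176% of all genes). The median log2 FC was 0.02 over the 8 members and 0.02 over all tested genes.

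Glul had 17496, 11415 and 10855 CPM in the AAV-GFP libraries 303, 306 and 307, and 4341, 2960 and 3849 CPM in the AAV-A2A libraries 309, 310 and 313. All AAV-A2A values were lower than all AAV-GFP values, as for 10.9% of the genes tested. As a share of all counts, Glul went from 1.11 to 1.70% of a library to 0.307 to 0.461%. The log2 FC was -1.83 (SE 0.24, 95% interval -2.38 to -1.29, adjusted p = 0.00386), a level 0.280 times that in AAV-GFP mice. With each of the 6 libraries left out in turn it stayed between -1.96 and -1.60, with an adjusted p of 0.0107 to 0.0268. In 1 fit of all 12 libraries, which shares its spread with the CD11b fraction, the log2 FC was -1.86 but the adjusted p was 0.157 and the call was lost. Over all 14 alternatives the adjusted p ran from 2.69e-11 to 0.157. Glul lies on chromosome 1 (153899944 to 153909723, plus strand, GRCm38). Of its exonic bases, 116 (3.49%) are shared with Teddm2 on the opposite strand and 93 lie in Mir8114, and whether the authors counted by strand is not given in the sources used here.

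**Figure D1:**
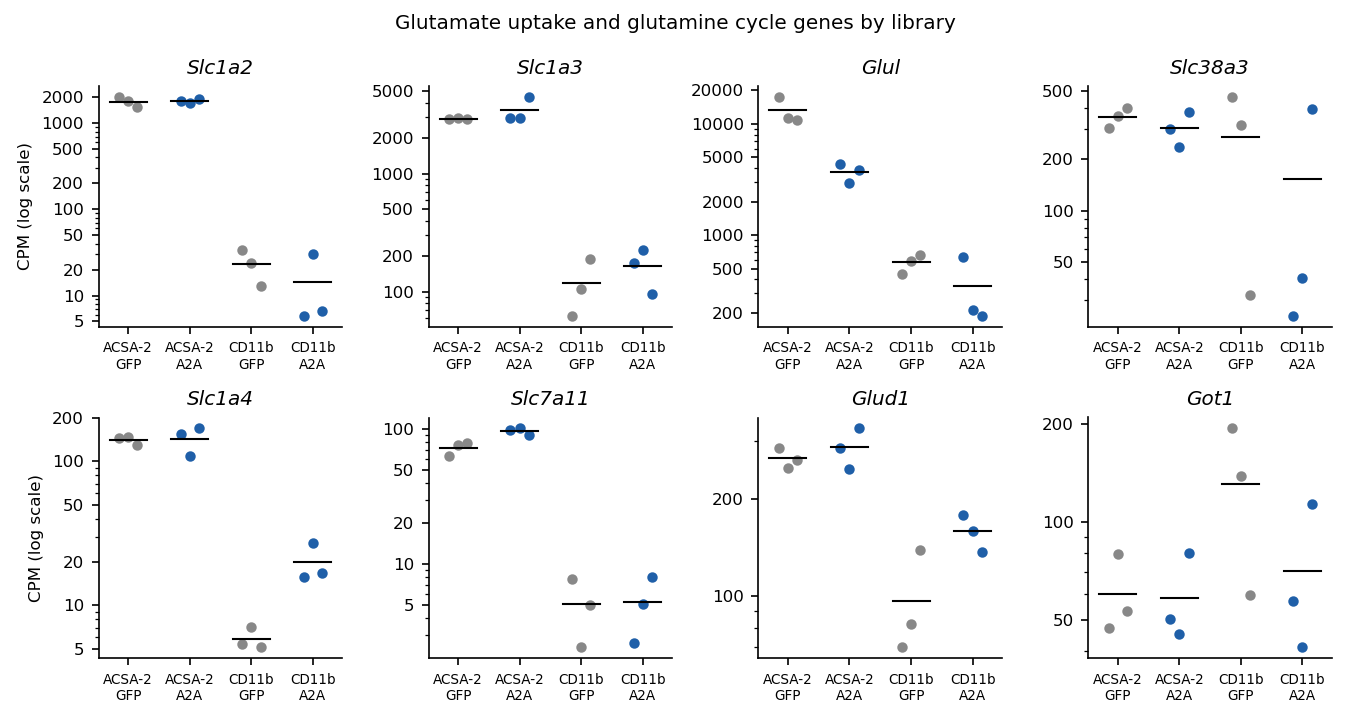
Level of each of the 8 genes in CPM on a log axis, with 1 point per library (grey AAV-GFP, blue AAV-A2A) and a line at the mean of the 3 libraries of a group. Glul is lower in the 3 AAV-A2A libraries of the ACSA-2 fraction (2960 to 4341 CPM) than in the AAV-GFP libraries (10855 to 17496 CPM). Slc1a2 overlaps between the vectors there, and Slc1a3 stays near its control level but for A2A-313 at 4460 CPM. In the CD11b fraction Slc1a2 is at 5.80 to 33.7 CPM and Slc1a3 at 62.2 to 224 CPM.

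The glutamate carriers did not follow Glul. Slc1a2 was at 2017, 1802 and 1532 CPM in the AAV-GFP libraries and at 1801, 1732 and 1888 CPM in the AAV-A2A libraries. The groups overlapped, and the interval of the log2 FC (0.02, SE 0.17) ran from -0.36 to 0.40. Slc1a3 was at 2907, 2941 and 2887 CPM under AAV-GFP and 2953, 2955 and 4460 CPM under AAV-A2A. The AAV-A2A values lay above the AAV-GFP values, but for A2A-309 and A2A-310 only by a small margin, and the log2 FC of 0.25 (SE 0.20, interval -0.20 to 0.70) had an adjusted p of 0.717. Of all tested genes 8.61% had AAV-A2A values that were all higher than the AAV-GFP values. A2A-313 also had the highest summed astrocyte markers, 33489 CPM against 20171 to 24610 CPM in the other ACSA-2 libraries. As a percent of these markers Slc1a3 was at 11.8, 12.8 and 14.3% under AAV-GFP and 14.6, 12.9 and 13.3% under AAV-A2A. On that scale the groups overlapped. For both carriers, a fall of the size seen for Glul lies outside these intervals. A direct test of Glul against the carriers was not made.

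The same held for Slc38a3, Glud1 and Got1. Slc38a3, the outlet for glutamine, was at 306, 356 and 398 CPM in the AAV-GFP libraries and 299, 235 and 378 CPM in the AAV-A2A libraries (log2 FC -0.22, SE 0.21, interval -0.68 to 0.25, adjusted p = 0.773). Glud1 was at 286, 249 and 263 CPM against 287, 247 and 329 CPM (log2 FC 0.11, SE 0.17, interval -0.27 to 0.49, adjusted p = 0.879). Got1 was at 47.0, 79.7 and 53.3 CPM against 50.1, 45.2 and 79.9 CPM (log2 FC -0.04, SE 0.28, interval -0.67 to 0.60, adjusted p = 0.984). In each of these genes the groups overlapped. Glud1 has a pseudogene, Glud-ps, with which it can share reads. The authors counted only uniquely aligned reads, and the effect of this on Glud1 was not tested.

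Neither exchanger passed the test. Slc1a4 was at 145, 148 and 130 CPM under AAV-GFP and 154, 108 and 169 CPM under AAV-A2A, which overlapped (log2 FC 0.02, SE 0.20, interval -0.42 to 0.47, adjusted p = 0.985). Slc7a11 was at 63.0, 76.5 and 79.5 CPM under AAV-GFP and 99.0, 101 and 89.8 CPM under AAV-A2A, with no overlap. Its log2 FC of 0.40 (SE 0.18, interval 0.01 to 0.80) had an unadjusted p of 0.0448 in edgeR and an adjusted p of 0.366, so it did not pass. Its partner chain Slc3a2 was likewise without overlap, at 602, 639 and 668 CPM against 796, 907 and 1176 CPM, and did not pass either (log2 FC 0.59, SE 0.19, adjusted p = 0.164). Of all tested genes, 8.61% lay higher under AAV-A2A without overlap.

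**Figure D2:**
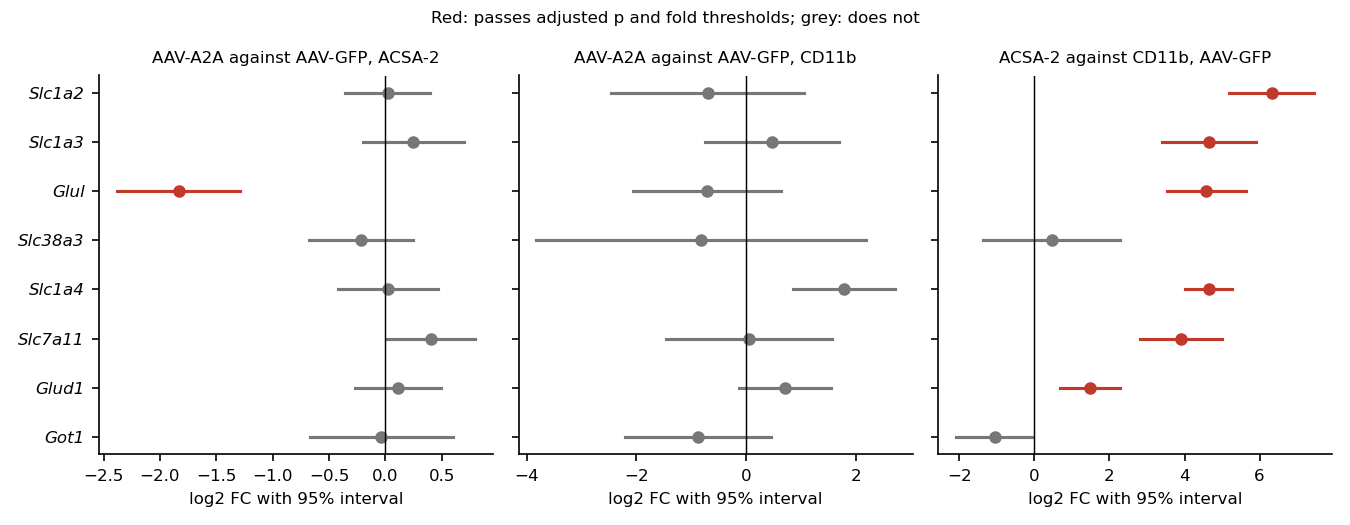
Log2 FC of each gene (points) with its 95% interval (lines) in the comparison of the vectors in ACSA-2, the comparison of the vectors in CD11b, and ACSA-2 against CD11b in AAV-GFP mice, each on its own scale. Red genes passed the thresholds: Glul alone in the first panel (-1.83), none in the second, where Slc1a4 lies at 1.78 with an interval that leaves out 0, and 6 in the third.

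A wider list of 33 genes of glutamate and glutamine handling was read beside the 8. In ACSA-2, 30 were tested, 2 were called lower, Slc7a5 and Atp1b2, and none higher, beside 3.19% and 0.176% of all tested genes. Slc7a5 (LAT1), which exchanges glutamine for large neutral amino acids and pairs with the same Slc3a2, had 57.0, 83.6 and 82.5 CPM under AAV-GFP and 28.0, 26.5 and 30.3 CPM under AAV-A2A (log2 FC -1.40, SE 0.22, adjusted p = 0.00768). Atp1b2, a beta subunit of the sodium pump that keeps the gradient for glutamate uptake, had 1843, 1460 and 1409 CPM against 808, 677 and 959 CPM (log2 FC -0.95, SE 0.20, adjusted p = 0.0294). In each of these genes the groups did not overlap, as for 10.9% of all tested genes in the same direction. Slc38a1, a glutamine importer, was just short of the threshold at 236, 342 and 261 CPM against 176, 86.5 and 93.0 CPM (log2 FC -1.24, SE 0.29, adjusted p = 0.0502). Of genes to be named whatever their change, Slc1a1, Slc1a5 and Got2 had log2 FC of -0.26, 0.54 and -0.21 and adjusted p values of 0.488 to 0.937. The median log2 FC of the 30 genes was -0.26, beside 0.02 over all tested genes.

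Among the 3438 genes with a mean of at least 50 CPM, those whose log2 CPM went most closely with Glul over the 6 ACSA-2 libraries were Dhx36, Slc30a9, Pde12, Fam53a and Chst10, with Pearson's r of 0.9997, 0.998, 0.998, 0.996 and 0.995. None of these 5 belongs to the wider list. All points of these correlations share the difference between the vectors, and Dhx36, for one, went from a mean of 166 CPM under AAV-GFP to 55.8 CPM under AAV-A2A. No member of the 8 was among them.

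The second comparison asked the same of the CD11b fraction, where none of the 8 members was called. edgeR called 0% of the 16949 genes tested there, although 2704 had an unadjusted p under 0.05; limma-voom also called 0 genes, and DESeq2 called 502. Slc1a4 had the largest log2 FC of the 8. It was at 5.36, 7.02 and 5.10 CPM in GFP-2328, GFP-2329 and GFP-2331 and at 15.8, 27.2 and 16.9 CPM in A2A-2343, A2A-2344 and A2A-2347. The groups did not overlap, which was so, in the same direction, for 12.6% of the genes tested. The log2 FC was 1.78 (SE 0.39, 95% interval 0.85 to 2.70), with an unadjusted p of 0.00277 and an adjusted p of 0.280 in edgeR, and an adjusted p of 0.0147 in DESeq2. With each library left out in turn edgeR gave a log2 FC of 1.48 to 1.93 and an adjusted p of 0.132 to 0.742. Without the 3 libraries rich in choroid plexus markers the log2 FC was 2.08, from 15.8 and 27.2 CPM against 5.10 CPM, and its adjusted p was 1.00; the lone AAV-GFP library is then taken to vary like the AAV-A2A libraries. The summed astrocyte markers were at 97.0, 247 and 112 CPM in the AAV-A2A libraries and 273, 270 and 129 CPM in the AAV-GFP libraries. Adora2a, in the same order, was at 17.8, 43.3 and 16.3 CPM and 3.96, 4.79 and 8.07 CPM (log2 FC 2.20, SE 0.54, adjusted p = 0.280), without overlap and, like Slc1a4 and the astrocyte markers among the AAV-A2A libraries, highest in A2A-2344. The endothelial, ependymal, erythrocyte and neuronal marker sums were lower in all 3 AAV-A2A libraries. The part of other cells in the value of Slc1a4 was not tested.

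The difference between the fractions in the vector effect was tested in a fit of all 12 libraries, where 0.403% of 18602 genes were called. No member was. Slc1a4 had a difference of -1.82 on the log2 scale (ACSA-2 minus CD11b, SE 0.40, interval -2.69 to -0.95, adjusted p = 0.0623), and it passed with DESeq2 (adjusted p = 0.00451), with genes of at least 10 counts in every library (0.0429), without A2A-2343 (0.0275) and without GFP-2331 (0.0378). Without the 3 libraries rich in choroid plexus markers it was -2.11 with an adjusted p of 0.232, the highest over 20 alternatives. For Glul the difference was -1.20 (SE 0.70, interval -2.72 to 0.33, adjusted p = 0.372), so its fall was not shown to be particular to astrocytes. With 1 library left out it was -1.53 (without A2A-2347) to -0.36 (without A2A-2343), with an adjusted p of 0.179 to 0.713, and without the 3 libraries rich in choroid plexus markers it was -1.24 (adjusted p = 0.529). In CD11b Glul was at 451, 585 and 667 CPM under AAV-GFP and 637, 213 and 188 CPM under AAV-A2A, which overlapped, with A2A-2343 among the AAV-GFP values (log2 FC -0.72, SE 0.56, adjusted p = 0.556). The log2 FC of Glul in CD11b was -1.50 without A2A-2343, -0.46 without A2A-2344, -0.40 without A2A-2347, and -0.65 without the 3 marker-rich libraries.

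In CD11b, Slc38a3 and Got1 were high in the libraries rich in choroid plexus markers, whichever the vector. Slc38a3 was at 463, 318 and 396 CPM in GFP-2328, GFP-2329 and A2A-2347, the 3 libraries rich in these markers, and at 32.5, 24.4 and 40.7 CPM in GFP-2331, A2A-2343 and A2A-2344. Got1 was at 194, 138 and 114 CPM in the former and 59.4, 57.2 and 41.0 CPM in the latter. Slc1a3 and Glud1 lay the other way, Slc1a3 at 62.2, 104 and 95.4 CPM against 189, 174 and 224 CPM and Glud1 at 69.7, 82.4 and 137 CPM against 139, 179 and 159 CPM. In these 4 of the 8 members the marker-rich and the other libraries did not overlap, as in 34.1% of the 16949 genes tested in CD11b, while the vectors overlapped in each. Of the 3 marker-rich libraries 2 were AAV-GFP. Log2 FC between the vectors were -0.82 for Slc38a3 (SE 1.26), -0.88 for Got1 (SE 0.56), 0.47 for Slc1a3 (SE 0.51) and 0.71 for Glud1 (SE 0.35). Without the marker-rich libraries they were 0.00759, -0.27, 0.08 and 0.29, with GFP-2331 as the lone AAV-GFP library. These 4 genes were picked by this same split, so their smaller values are no separate support. The part of choroid plexus cells in these values was not tested.

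**Figure D3:**
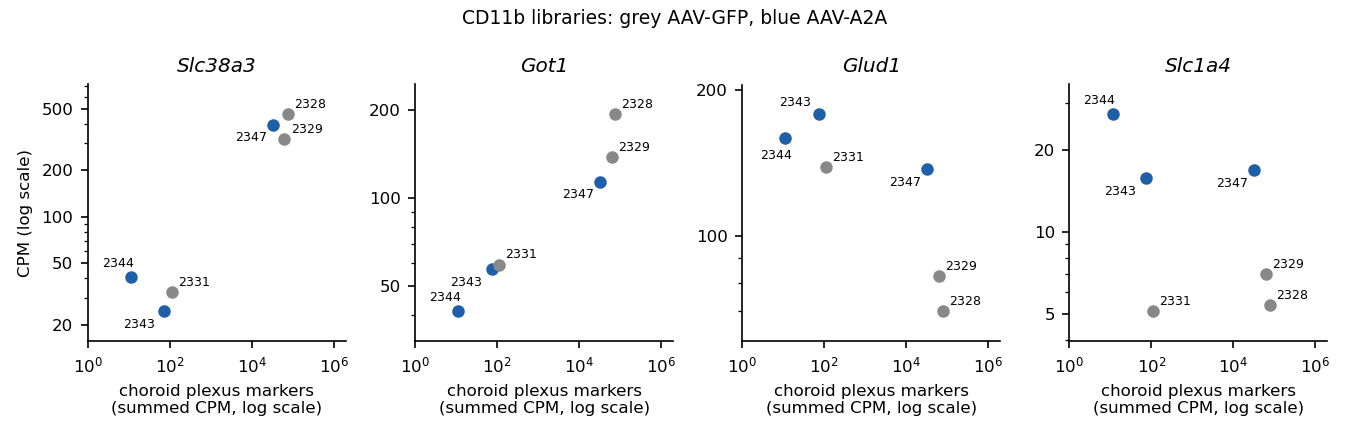
Level of Slc38a3, Got1, Glud1 and Slc1a4 (CPM, log axis) against the summed CPM of 6 choroid plexus markers (log axis) in the 6 CD11b libraries, each labelled with its replicate number, grey for AAV-GFP and blue for AAV-A2A. Slc38a3 is at 318 to 463 CPM in the 3 libraries on the right and at 24.4 to 40.7 CPM in the 3 on the left, whereas Slc1a4 divides by colour.

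The remaining members were low in CD11b. Slc1a2 was at 33.7, 23.5 and 12.7 CPM under AAV-GFP and 5.80, 30.6 and 6.63 CPM under AAV-A2A (log2 FC -0.70, SE 0.74), and at 0.52 in the opposite direction without the 3 libraries. Slc7a11 was at 7.75, 2.42 and 5.0 CPM against 2.59, 5.09 and 8.05 CPM (log2 FC 0.05, SE 0.64, and -0.38 without them). In both genes the groups overlapped. In the wider list 29 genes were tested in CD11b and none was called, nor was any of the 28 tested without the 3 libraries.

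The third comparison set the fractions side by side in AAV-GFP mice. Of the 8 members 6 were called, against 25.8% of 16980 tested genes. All 6 were higher in ACSA-2 (12.7% of all genes) and none was lower (13%). Slc1a2 had the largest difference, a log2 FC of 6.32 (SE 0.48, adjusted p = 5.72e-04), from 138 ± 18.9 RPKM in ACSA-2 to 1.73 ± 0.72 RPKM in CD11b. Slc1a4 (4.64, SE 0.26), Slc1a3 (4.64, SE 0.53) and Glul (4.58, SE 0.44) lay close together, with adjusted p values of 2.73e-04, 0.00245 and 0.00126. Slc7a11 differed by 3.90 (SE 0.46, adjusted p = 0.00291) and Glud1 by 1.49 (SE 0.34, adjusted p = 0.0211). Without GFP-2328 and GFP-2329, which leaves GFP-2331 as the lone CD11b library and assumes that it varies like the ACSA-2 libraries, these 6 were still called, at 7.08, 4.74, 3.90, 4.26, 3.82 and 0.89. The call of Glud1 was lost without GFP-303, GFP-306, GFP-307 or GFP-2329, with adjusted p values up to 0.0845.

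Slc38a3, known as an astrocyte carrier, did not pass when all libraries were used (log2 FC 0.46, SE 0.77, interval -1.37 to 2.29, adjusted p = 0.691). Without GFP-2328 and GFP-2329, its log2 FC was 3.4 with an adjusted p of 9.34e-04, so this result turned on the libraries rich in choroid plexus markers. Got1 had a log2 FC of -1.06 (SE 0.44, interval -2.09 to -0.03, adjusted p = 0.117). It was called lower in ACSA-2 without GFP-2331 (log2 FC -1.39, adjusted p = 0.00896), and it stood at -0.03 (adjusted p = 0.956) without the other two CD11b libraries.

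The level of each member in CD11b was then set beside that of the astrocyte markers. In AAV-GFP mice the CD11b level of the 9 astrocyte markers was 0.227 to 5.63% of their ACSA-2 level, with a median of 1.20%. Slc1a2 was at 1.25%, within this range and close to the median. Slc1a4 (4.0%), Slc1a3 (4.01%) and Glul (4.17%) were also within it, but of the 9 markers only S100b (5.63%) lay above them. The next marker, Aqp4, was at 2.83%. Slc7a11 (6.68%), Glud1 (35.7%), Slc38a3 (72.8%) and Got1 (208%) were above every marker. With GFP-2331 as the only CD11b library, which leaves out those rich in choroid plexus markers, the astrocyte markers were at 0.164 to 4.28%. Slc38a3 then came to 9.31%, Got1 to 100.3% and Glud1 to 52.9%. Slc1a2 (0.723%) was within the range of the markers. Slc1a4 (3.66%) was within it only through S100b (4.28%), as the next marker, Aqp4, was at 1.25%. Glul (5.09%), Slc1a3 (6.57%) and Slc7a11 (6.93%) were above it.

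Set against the summed markers of the same library, the ACSA-2 and CD11b ranges overlapped for Slc1a2 alone. It amounted to 5.64 to 8.89% of the summed astrocyte markers in ACSA-2 and to 5.90 to 12.4% in CD11b. For each of the other 7 genes every CD11b library lay above every ACSA-2 library: Slc1a3 was at 11.8 to 14.6% in ACSA-2 and 22.8 to 179% in CD11b, and Glul at 11.5 to 71.1% and 86.1 to 657%. Slc1a4 was at 0.472 to 0.758% in ACSA-2 and 1.97 to 16.3% in CD11b. These ranges pool the vectors. In CD11b, Slc1a4 was at 1.97, 2.59 and 3.95% under AAV-GFP and 16.3, 11.03 and 15.02% under AAV-A2A, without overlap. Glul in ACSA-2 was at 71.1, 49.7 and 53.8% under AAV-GFP and 21.4, 12.9 and 11.5% under AAV-A2A, also without overlap. Between the vectors, Slc1a4 in ACSA-2 and Glul in CD11b overlapped. These ratios rest on 97.0 to 273 CPM of marker in CD11b, and the source of the additional reads was not tested.

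**Figure D4:**
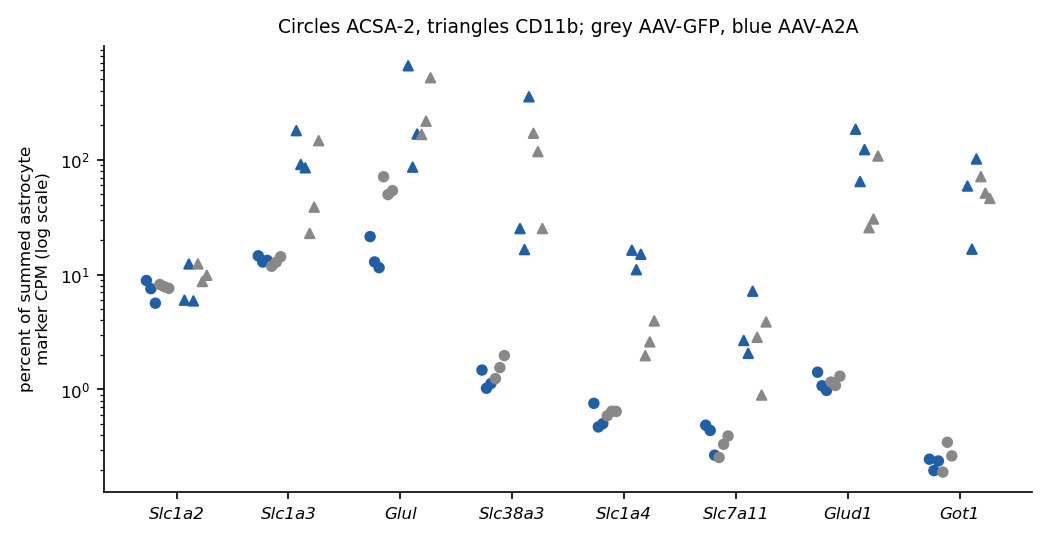
Each gene's CPM as a percent of the summed CPM of 9 astrocyte markers in the same library (log axis), circles for ACSA-2 and triangles for CD11b, grey for AAV-GFP and blue for AAV-A2A. Only for Slc1a2 do the circles (5.64 to 8.89%) and triangles (5.90 to 12.4%) share a range.

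In the wider list 28 genes were tested between the fractions, 9 were called higher in ACSA-2 and 5 lower. Over all 16980 tested genes, 12.7% were called higher and 13% lower. Those higher included the mitochondrial glutamate carrier Slc25a18 (log2 FC 5.50, SE 0.31), the glutamate receptor Grm3 (5.30, SE 0.51), the sodium pump subunit Atp1b2 (5.14, SE 0.33), the transaminases Gpt (4.60, SE 0.33), Psat1 (3.37, SE 0.55), Bcat1 (2.93, SE 0.87) and Gpt2 (2.68, SE 0.28), and asparagine synthetase Asns (1.72, SE 0.45). Those lower included Slc25a13 (-6.22, SE 1.51), the glutamine carrier Slc38a2 (-2.02, SE 0.29), the mitochondrial carrier Slc25a22 (-1.72, SE 0.34) and the mitochondrial aminotransferase Got2 (-1.39, SE 0.34). Without GFP-2328 and GFP-2329, GFP-2331 was the lone CD11b library. Slc25a13 (log2 FC -4.09), Got2 (-0.73), Slc25a22 (-1.45), Bcat1 (3.20) and Asns (2.17) were among those then no longer called. Calls were also gained, among them Slc38a1 (1.21) and Pcx (2.74) as higher and Slc38a7 (-2.96) as lower. In CD11b, Slc25a13 was at 34.2, 26.4 and 37.6 CPM in the 3 libraries rich in choroid plexus markers and 4.64, 6.89 and 5.35 CPM in the others, and Got2 at 73.2, 57.5 and 78.5 CPM and 31.9, 33.8 and 30.1 CPM.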

How the data were processed

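Poly(A) RNA of 12 libraries was sequenced after SMART-Seq v4 amplification without molecular identifiers. The authors trimmed the reads with cutadapt 1.10, aligned them to mm10 with STAR 2.5.3, counted with HTSeq 0.6.1p1 and deposited raw counts per Ensembl gene, 33937067 to 49217553 per ACSA-2 and 36098295 to 53206974 per CD11b library. Duplicates are thus included. Columns were assigned from the labels, and p values measure the spread between these libraries. Names, positions and exon lengths are from GENCODE for GRCm38.

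Counts were tested with edgeR 4.0.16 (R 4.3.3, TMM, filterByExpr, robust quasi-likelihood), each fraction apart, adjusting over all tested genes. Fractions and interaction used the 25442 shared identifiers. The alternatives were DESeq2 1.42.0, limma-voom 3.58.1, other scalings and filters, a joint fit and each library left out. Named were the 8 members, the called genes of the wider list with Slc1a1, Slc1a5, Slc3a2 and Got2, Adora2a, the leading marker of a list that moves with a group and the 5 genes most like Glul. Some genes that meet this rule are not reported here. Slc38a1 was named after its values were seen. Members and lists were chosen with earlier results of these data known. Figures used matplotlib 3.10.9 in Python 3.11.15.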

Additional observations from a re-analysis of the deposited data

How the results depend on the processing

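Of 520 values of the 8 genes under alternatives, 480 kept their direction and side of the threshold. Glul in ACSA-2 lost its call in the joint fit of 12 libraries (0 members called in place of 1), and with each library left out 1 was called. In CD11b 1 member (Slc1a4) was called with DESeq2, and 0 with any library left out. Between fractions 5 to 7 members were called with a library left out, and 7 without GFP-2328 and GFP-2329, a choice made after seeing the data. For the difference of the vector effects 1 member (Slc1a4) was called with DESeq2 and with at least 10 counts in every library, and 0 to 1 with a library left out.

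Signs turned in log2 FC that were not called. Not all of these were small. Over all libraries, Slc38a3 was -0.82 in CD11b and 0.61 for the difference of the vector effects. In ACSA-2, leaving out 1 library gave -0.085 to 0.099 for Slc1a2, -0.11 to 0.19 for Slc1a4, -2.25e-04 to 0.21 for Glud1 and -0.34 to 0.22 for Got1. Upper-quartile scaling gave 0.057 for Got1, and the joint fit -0.00985 for Slc1a2 and -0.00447 for Slc1a4. In CD11b Slc7a11 was -0.14, -0.043 and -0.030 with upper-quartile scaling, total counts and at least 10 counts, -0.38 to 0.51 with 1 library left out and -0.38 without GFP-2328, GFP-2329 and A2A-2347, where Slc1a2 was 0.52 and Slc38a3 0.00759. Between fractions, Slc38a3 was -0.065 to 1.06 with 1 library left out. For the difference of the vector effects, leaving out 1 library gave -0.85 to 0.030 for Slc1a3, -0.00563 to 2.69 for Slc38a3 and -0.091 to 0.68 for Slc7a11, and without the 3 choroid-rich libraries Slc1a2, Slc1a3 and Slc38a3 were -0.55, 0.11 and -0.28. The cause was not tested.

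Over all genes, calls in ACSA-2 (553) were 1277 with DESeq2, 156 in the joint fit and 272 to 448 with a library left out. In CD11b 3 genes were called without the choroid-rich libraries. Between fractions (4377) there were 6834 with DESeq2, 7755 in AAV-A2A libraries and 1927 to 5836 with a library left out. For the difference of the vector effects (75) there were 1740 with DESeq2, 345 with at least 10 counts, 10 with RLE scaling, 0 with upper-quartile or total-count scaling, 0 without the choroid-rich libraries and 0 to 1286 with a library left out. No paired analysis was possible because the groups share no replicate numbers.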
